A study of Homo sapiens with 12 samples.

Results

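The SG transfection without tumour necrosis factor was described here, 3 K562 libraries against 3 libraries transfected with control reagents, 6 of the 12 libraries of the series. Loci were chosen by a rule that uses level only: a gene name in the table and a mean of at least 5 FPKM (fragments scaled to transcript length and then to how many fragments each library mapped) over these 6 libraries. It left 12648 of 38272 loci. K562 is a chronic myeloid leukaemia (CML) cell line. Control cells were transfected with the control siRNA and control GapmeR named SiCt and GapCt, and SG cells with the siRNA Si623 and the GapmeR Gap01 against a long non-coding RNA (lncRNA). Neither group received tumour necrosis factor alpha (TNF). The TNF and TNFSG groups, used below for a second comparison, had the same transfections followed by TNF at 20 ng/mL for 6 hours. The 3 replicates of a group are labelled as biological. Both reagents of 1 design each were given together, so the effects of Si623, of Gap01 and of the loss of their target cannot be told apart.

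A small interfering RNA loads into Argonaute and leads it to matching transcripts, which are cut, and it can also lower transcripts that match only its seed, in the manner of a microRNA. A GapmeR is a DNA oligonucleotide with modified ends that pairs with RNA in the nucleus and cytoplasm, where RNase H cuts the RNA strand. Long non-coding RNAs have no known protein product, and some are hosts of microRNAs, which are cut out of them.

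The series title calls the target long non-coding RNA-PPTG1-1:1. Catalogues of lncRNAs commonly name such a transcript after a neighbouring protein-coding gene, and PTTG1 (securin, an inhibitor of separase) is the gene symbol of closest spelling, so the region around PTTG1 was described on that reading. In GENCODE release 29 (hg38) PTTG1 lies at chr5:160421822-160428744 on the plus strand. It is followed by MIR3142HG at chr5:160438594-160487426, a lincRNA gene on the same strand with MIR146A inside its exon 2, at chr5:160485352-160485450. The hairpin of MIR146A yields 2 mature microRNAs, shown because their locus is a measured member of the region that was lower in all 3 SG libraries. The sequences are from RefSeq (GRCh38.p14), 5′ to 3′, with the seed, bases 2 to 8, in capitals.
hsa-miR-146a-5p: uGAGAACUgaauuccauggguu
hsa-miR-146a-3p: cCUCUGAAauucaguucuucag

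The locus named MIR146A was low without TNF, at 0.360, 0.569 and 0.159 FPKM in the control libraries and at 0, 0.0566 and 0.0630 FPKM in the SG libraries. Its groups did not overlap, but it lay under the minimum of 5 FPKM and was not among the loci chosen. A two-sided exact permutation test over the 6 libraries gave p = 0.1, the smallest that 3 against 3 allows. In the fit of the whole table its log2 difference was -0.38 ± 0.22 (SE; limma adjusted p = 0.628). Values were taken as log2(FPKM + 1), which shrinks differences at levels this low, so this size cannot be set beside that after TNF. After TNF the same locus was listed at 28.1, 25.6 and 21.2 FPKM in the TNF libraries and at 7.77, 4.51 and 4.03 FPKM in the TNFSG libraries (log2 difference -2.05 ± 0.22, limma adjusted p = 0.0191 in the fit of the whole table). The values are those of the assembled locus, not of mature miR-146a.

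Of the measured neighbours, 5 passed the level rule and limma called none of them (0 with an unadjusted p under 0.05, beside 1.08% called of all loci tested). PTTG1 was at 192 ± 11.04 and 182 ± 6.49 FPKM (mean ± SD, n = 3, control then SG), SLU7, a splicing factor, at 19.4 ± 2.33 and 19.02 ± 0.976 FPKM, and PWWP2A, a chromatin reader, at 12.4 ± 1.52 and 11.6 ± 1.44 FPKM. TTC1, a tetratricopeptide-repeat protein, was at 61.5, 60.7 and 61.0 FPKM in the control libraries and 64.3, 65.2 and 66.7 FPKM in the SG libraries, a difference of 0.10 on the log2 scale (limma adjusted p = 0.559). FABP6, a bile acid binding protein, was at 9.46, 15.3 and 30.7 FPKM in the control libraries and 5.59, 14.3 and 15.98 FPKM in the SG libraries, with groups that overlapped. Below the minimum, ATP10B was at 3.38 FPKM in control and 3.52 FPKM in SG (means), ZBED8 at 2.33 and 3.47 FPKM, and CCNJL at 6.88 and 1.59 FPKM. For these loci only means are given, so their spread and any overlap cannot be read from them.

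The label K562 was checked against marker genes. GATA1 (131 ± 2.69 and 125 ± 9.89 FPKM) and KLF1 (93.9 ± 13.4 and 87.4 ± 1.26 FPKM), the erythroid transcription factors of this line, were high in both groups, and limma called none of 11 tested identity loci (0 with an unadjusted p under 0.05). Against the label, the locus shared by MTAP and CDKN2B-AS1 was listed at 102, 137 and 146 FPKM in the control libraries and 102, 184 and 221 FPKM in the SG libraries, although MTAP is commonly described as deleted from K562. Marker lists of lymphoid, fibroblast, epithelial and endothelial cells had 4 of 12, 3 of 10, 8 of 10 and 4 of 8 genes found, and limma called none of their tested loci, none of which had an unadjusted p under 0.05. Their summed FPKM overlapped between the groups: 27.6 to 58.9 in control and 37.3 to 61.8 in SG for lymphoid genes, 23.9 to 56.3 and 21.3 to 45.3 for fibroblast genes, 689 to 923 and 546 to 909 for epithelial genes, and 23.1 to 58.7 and 17.1 to 52.7 for endothelial genes. Relative depths, from loci whose values step in whole reads, were 0.863 to 1.097 in control and 0.877 to 1.09 in SG, and total read numbers are unknown. The median level of the chosen loci was 17.9 to 18.3 FPKM in control and 19.1 to 19.7 FPKM in SG, and the groups did not overlap in it. Correlations of log2 values across the chosen loci were 0.71 to 0.82 within groups and 0.70 to 0.80 between groups.

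After the SG transfection MED1, CAV2, CD46, HEATR1, SHOC2 and the locus of DNAJC25 and GNG10 were lower in all 3 libraries, and SEC11A, UBE2L6, CRTC1 and NEK9 were higher in all 3. The mean level of MED1 fell by 49.7% and that of SHOC2 fell by 62.4%, while that of SEC11A was 1.78 times and that of UBE2L6 2.08 times the control mean. A locus was called when limma, fitted over all 12 libraries on log2(FPKM + 1), gave an adjusted p under 0.05. Of 12648 loci, 56 (0.443%) were called higher and 81 (0.64%) lower, 137 in all (1.08%), and 1837 had an unadjusted p under 0.05. The median difference was 0.48 on the log2 scale (log2(FPKM + 1) throughout) for the loci called higher and -0.52 for those called lower, beside 0.05 for all loci tested. Of the higher loci 12 and of the lower loci 4 moved by at least 1. Of the calls 59.1% were lower, and with median-ratio scaling (36 higher, 128 lower) or quantile normalization (30 higher, 175 lower) this share was 78.0% or 85.4%. All 81 falls were called under both scalings, and 36 and 30 of the 56 rises. All 137 had control and SG values that did not overlap, which held for 19.2% of all loci tested (12.1% higher and 7.1% lower). In bulk RNA, fewer cells with a transcript and less of it per cell cannot be told apart.

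**Figure D1:**
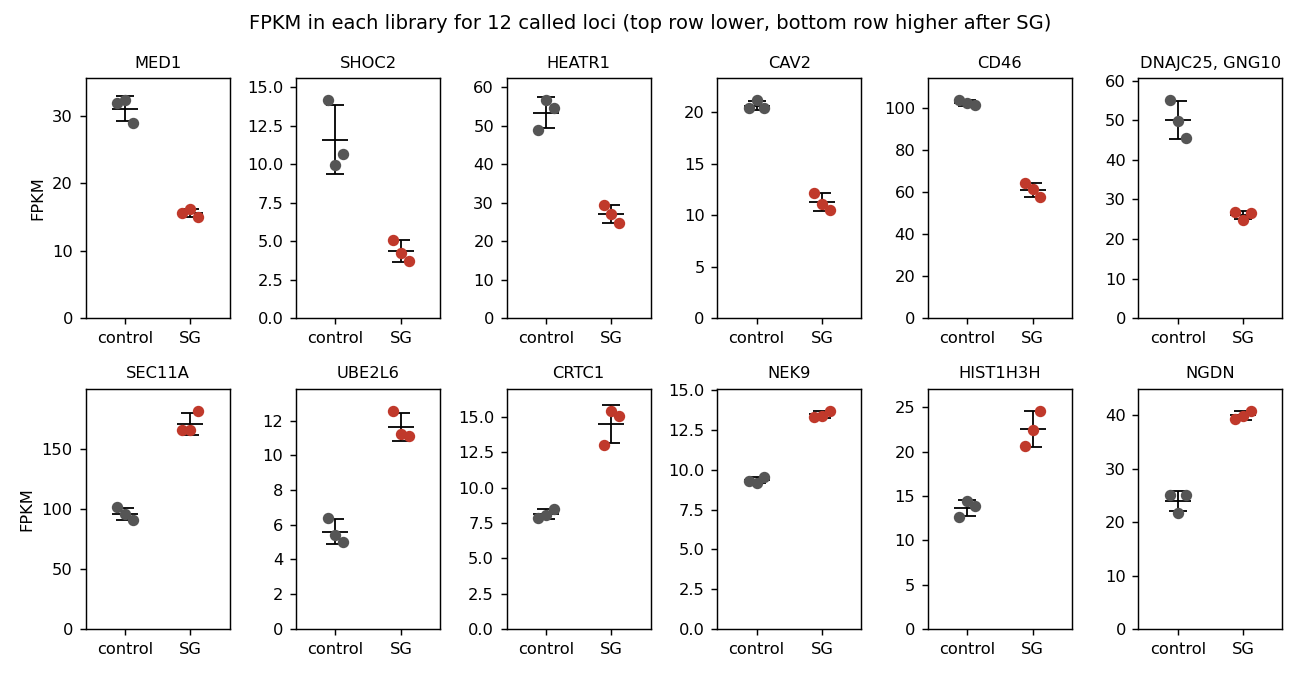
FPKM (linear axes from 0) in each of the 3 control and 3 SG libraries for 6 loci called lower (top row) and 6 called higher (bottom row), with mean and SD as bars. No SG point reaches the range of the control points in any of the 12 panels.

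The number of calls rested on the spread estimated over all 12 libraries. With only the 6 SG and control libraries in the fit, 2 loci were called higher and 2 lower, each of them listed at 0 in all 3 libraries of 1 group, and 1491 had an unadjusted p under 0.05, among them all 137 loci called above. There MED1 had a limma adjusted p of 0.0504, the highest over its 19 alternatives, which went down to 0.00031. Over the whole table, unnamed and low loci included, 56 loci were called (0.17%), 52 of them among the 137. The calls of 10 higher and 27 lower loci held in each of the 6 fits that left out 1 library, those of 25 higher and 20 lower loci were lost in all 6, and the other 55 were lost in some. Among loci with a large difference, few were called: 1136 loci differed by at least 1 on the log2 scale in either direction, 16 of these were called, and for 727 of the 1136 all values stepped in whole reads, at most 60 per library.

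**Figure D2:**
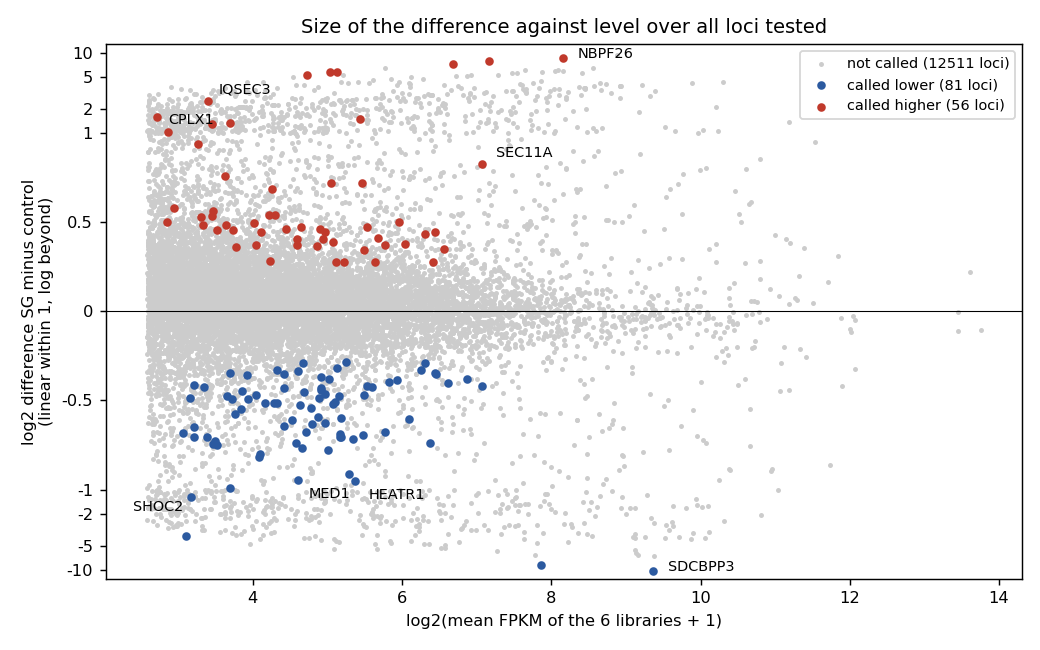
Log2 difference SG minus control (vertical axis, linear within 1 and logarithmic beyond) against log2(mean FPKM of the 6 libraries + 1) for the 12648 loci tested, with the 56 called higher in red and the 81 called lower in blue. Most calls lie within 1 of the zero line, below many uncalled loci of larger difference.

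Among genes of transcription and chromatin, MED1, GTF2A1, TBP, EZH2, E2F3 and ZMYND8 were called lower and CRTC1 and IRF2 higher. MED1, the Mediator subunit that contacts nuclear receptors and GATA factors (chr17:39404285-39451286, minus strand), was at 31.8, 32.3 and 28.9 FPKM in the control libraries and 15.7, 16.2 and 15.03 FPKM in the SG libraries. The 3 SG values lay close together and below every control value, with a log2 difference of -0.95 ± 0.06 (SE; limma adjusted p = 0.000532). GTF2A1, the large subunit of the general factor TFIIA, was at 13.5, 12.9 and 12.05 FPKM in the control libraries and 7.85, 7.52 and 6.43 FPKM in the SG libraries, a log2 difference of -0.74 ± 0.09 (SE; limma adjusted p = 0.00705). TBP, the TATA-binding protein, was at 25.7, 24.6 and 30.4 FPKM in the control libraries and 16.6, 18.1 and 16.8 FPKM in the SG libraries, and its difference of -0.61 had a limma adjusted p of 0.0145. TBP is often used as a reference gene, and it was the only call among 15 loci of reference genes (median -0.01; 1.08% of all loci were called). GAPDH and HPRT1 were not called but did not overlap, GAPDH at 1337, 1338 and 1358 FPKM in the control libraries and 1188, 1118 and 1148 FPKM in the SG libraries, and HPRT1 at a mean of 54.7 ± 3.93 and 67.5 ± 3.97 FPKM (SD, n = 3). EZH2, the histone H3 lysine methyltransferase of the Polycomb complex PRC2, went from 96.02 ± 1.44 to 75.4 ± 1.34 FPKM, with no overlap. E2F3, a factor of S-phase entry, went from 42.5 ± 2.45 to 27.7 ± 1.96 FPKM and ZMYND8, a reader of acetylated histones, from 39.4 ± 0.842 to 27.4 ± 1.201 FPKM. CRTC1, a coactivator of CREB, moved the other way and was at 7.87, 8.06 and 8.498 FPKM in the control libraries and 13.01, 15.4 and 15.1 FPKM in the SG libraries, a log2 difference of 0.76 ± 0.09 (SE; limma adjusted p = 0.00493). IRF2, a factor of the interferon regulatory family, rose from 4.96 ± 0.343 to 7.43 ± 0.234 FPKM (limma adjusted p = 0.0334), but its call and that of ZMYND8 were lost in all 6 fits without 1 library, and that of E2F3 in 4. The call of TBP was lost in 2 of these fits.

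Mediator bridges transcription factors and RNA polymerase II. Of its 32 tested subunits, 1 was called lower (MED1) and 1 higher (MED29), against 0.64% and 0.443% of all loci tested. The Mediator list, like all gene lists here, was made with earlier results known. Shares of called members therefore describe these members only. Non-overlapping values were found in 3 subunits lower (9.38%, beside 7.1% of all loci) and 6 higher (18.8%, beside 12.1%), and the median over the 32 subunits was 0.05, as over all loci. MED29 was at 13.2, 13.3 and 13.6 FPKM in the control libraries and 16.9, 17.5 and 18.5 FPKM in the SG libraries, a log2 difference of 0.37 ± 0.06 (SE; limma adjusted p = 0.0320), and it was lost in all 6 fits without 1 library. MED17, a core subunit of the head, was at 13.9, 14.8 and 13.8 FPKM in the control libraries and 9.602, 11.3 and 11.1 FPKM in the SG libraries. It did not pass the test (log2 difference -0.38, limma adjusted p = 0.0708), although its groups did not overlap. MED16 of the tail was at 23.9 ± 1.103 and 28.8 ± 1.495 FPKM and MED27 at 21.9 ± 6.79 and 28.4 ± 1.18 FPKM, both without a call. The locus taken for MED21 is one of few reads and large error, with a log2 difference of -2.21 ± 1.12 (SE).

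**Figure D3:**
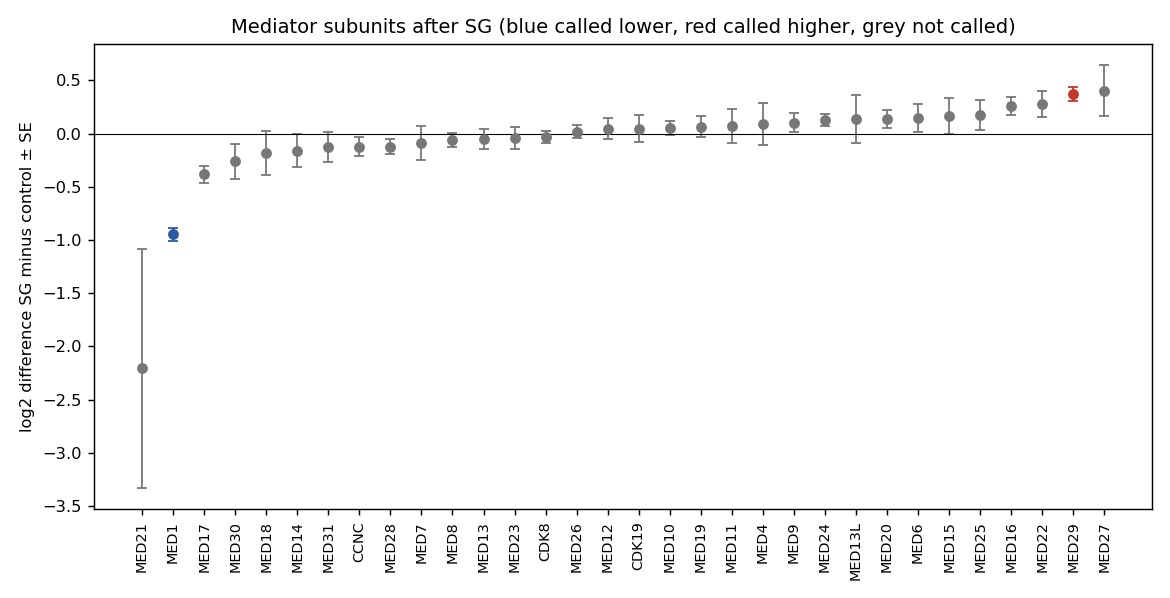
Log2 difference SG minus control for each of 32 Mediator subunits, with the standard error as bars. MED1 stands at -0.95 and MED29 at 0.37, the 2 called subunits, and MED21 has the widest bar.

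HEATR1, UTP6 and MAK16, proteins of ribosome assembly, were called lower and NGDN higher. HEATR1, a large scaffold of the small-subunit processome that is also needed for transcription by RNA polymerase I (chr1:236549005-236604504, minus strand), was at 48.8, 56.6 and 54.5 FPKM in the control libraries and 29.3, 27.1 and 24.7 FPKM in the SG libraries. The groups stood far apart, with a log2 difference of -0.95 ± 0.10 (SE; limma adjusted p = 0.00425). UTP6, another processome protein, was at 61.4, 67.7 and 68.7 FPKM in the control libraries and 44.4, 37.3 and 40.9 FPKM in the SG libraries, a log2 difference of -0.68 ± 0.08 (SE; limma adjusted p = 0.00493). MAK16, a factor of large-subunit assembly, was at 40.0, 42.8 and 47.5 FPKM in the control libraries and 27.2, 24.6 and 27.9 FPKM in the SG libraries, a log2 difference of -0.69 ± 0.08 (SE; limma adjusted p = 0.00493). These 3 calls held in each fit that left out a library. Of 48 tested loci for RNA polymerase I and the processome, 2 were called lower (4.17%, beside 0.64% of all loci) and none higher at adjusted p under 0.05 (8 had an unadjusted p under 0.05). This list too was made with earlier results known. Lower values without overlap were found in 10 (20.8%, beside 7.1%) and higher ones in none (12.1% of all loci), and the median was -0.06. RRN3, the initiation factor of RNA polymerase I, was at 12.9 ± 0.912 and 10.3 ± 0.546 FPKM, WDR36 at 22.1 ± 1.36 and 17.1 ± 0.602 FPKM and UTP23 at 10.8 ± 0.821 and 8.37 ± 0.561 FPKM, 3 of those 10 without a call. NGDN, a further protein of the processome, is not among the 48 loci of the list, so the count of none higher leaves it out. It was at 25.1, 21.7 and 25.02 FPKM in the control libraries and 39.3, 39.95 and 40.8 FPKM in the SG libraries, without overlap, a log2 difference of 0.72 ± 0.10 (SE; limma adjusted p = 0.00955).

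PAIP1, DHX29, NSUN2 and MRPL10 were called lower, the last 3 of them picked after their values were seen. PAIP1, which binds poly(A)-binding protein and promotes initiation, was at 50.5, 52.8 and 50.3 FPKM in the control libraries and 36.6, 37.7 and 35.9 FPKM in the SG libraries, a log2 difference of -0.47 ± 0.05 (SE; limma adjusted p = 0.00425). DHX29, a helicase of the scanning ribosome, went from 22.98 ± 0.832 to 17.8 ± 1.05 FPKM, NSUN2, an RNA cytosine methyltransferase, from 86.4 ± 1.93 to 70.5 ± 2.32 FPKM, and MRPL10 of the mitochondrial ribosome from 37.0 ± 2.51 to 23.7 ± 3.41 FPKM. The call of NSUN2 was lost in all 6 fits without 1 library and those of DHX29 and MRPL10 in 5. No locus of 27 snoRNA host genes was called by limma (6 had an unadjusted p under 0.05). Of the 27, 8 had lower values without overlap (29.6%, beside 7.1% of all loci) and none higher, 24 were below 0 (88.9%, beside 39.7% of all loci), and the median was -0.14. Host genes carry small nucleolar RNAs in their introns. SNHG1 was at 309 ± 5.58 and 272 ± 24.8 FPKM, the locus shared by SNHG3 and the protein-coding gene RCC1 at 218 ± 1.299 and 193 ± 5.95 FPKM and SNHG12 at 57.6 ± 5.097 and 48.7 ± 0.383 FPKM. MYC was at 148, 166 and 189.6 FPKM in the control libraries and 133, 114 and 127 FPKM in the SG libraries, lower without overlap but not called (limma adjusted p = 0.104).

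Of the loci called higher, SEC11A had the lowest adjusted p among those not listed at 0 in any library. SEC11A, a catalytic subunit of the signal peptidase that cuts signal sequences from new proteins in the endoplasmic reticulum (chr15:84669538-84716716, minus strand), was at 101, 95.7 and 90.7 FPKM in the control libraries and 166, 166 and 182 FPKM in the SG libraries. Every SG value was far above the highest control value, with a log2 difference of 0.83 ± 0.07 (SE; limma adjusted p = 0.00160). The other 4 subunits measured were not called. SEC11C, the alternative catalytic subunit, was at 62.1 ± 5.63 and 73.1 ± 4.28 FPKM, and SPCS1, SPCS2 and SPCS3 were at 58.3 ± 5.22 and 60.8 ± 6.2, 38.8 ± 2.97 and 36.3 ± 1.71 and 41.04 ± 2.41 and 40.2 ± 2.904 FPKM. Among 25 loci of the signal peptidase and the translocation channel, SSR3, a subunit of the translocon-associated complex, was the only other call, and it fell from 63.4 ± 1.95 to 47.95 ± 3.03 FPKM. These 2 calls are 1 rise and 1 fall (beside 0.443% and 0.64% of all loci), and the median of the 25 was -0.01.

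Proteins of the cell surface and of trafficking were called in both directions. CAV2, a caveolin of plasma membrane pits (chr7:116287380-116508541, plus strand), was at 20.4, 21.2 and 20.4 FPKM in the control libraries and 12.2, 11.1 and 10.6 FPKM in the SG libraries, a log2 difference of -0.82 ± 0.06 (SE; limma adjusted p = 0.00124). CD46, the complement regulator and cofactor of factor I (chr1:207752057-207795513, plus strand), was at 104, 102 and 101 FPKM in the control libraries and 64.3, 61.5 and 57.5 FPKM in the SG libraries. Both groups were tight and far apart, with a log2 difference of -0.74 ± 0.06 (SE; limma adjusted p = 0.00154). SLC39A14, a zinc and iron importer, was at 22.8, 23.1 and 22.1 FPKM in the control libraries and 16.7, 15.2 and 14.8 FPKM in the SG libraries, a log2 difference of -0.52 ± 0.06 (SE; limma adjusted p = 0.00698). The locus shared by DNAJC25, a DnaJ protein, and GNG10, a G-protein gamma subunit, was at 55.1, 49.8 and 45.5 FPKM in the control libraries and 26.9, 24.8 and 26.6 FPKM in the SG libraries. It was called at -0.91 ± 0.07 (SE; limma adjusted p = 0.00124), and the values do not say which gene moved. APPL1, an adaptor of early endosomes, went from 10.3 ± 0.312 to 6.23 ± 0.209 FPKM, and BICD2, an adaptor of dynein, from 15.3 ± 1.26 to 9.88 ± 0.596 FPKM. M6PR, the small mannose 6-phosphate receptor, went from 40.3 ± 2.25 to 28.7 ± 1.01 FPKM and SEC24A of the COPII coat from 18.1 ± 1.32 to 12.8 ± 0.455 FPKM. STX12, a syntaxin of endosomes, rose from 12.4 ± 1.095 to 17.96 ± 0.692 FPKM. The call of SEC24A was lost in all 6 fits without 1 library, that of STX12 in 4, that of M6PR in 2 and that of BICD2 in 1. Of 17 loci for complement regulators and other surface proteins 3 were called lower (17.6%) and none higher, with a median of -0.01. Of 30 loci for endocytosis 3 were called lower (10%) and none higher, with a median of 0.06, beside 0.64% called lower of all loci. Both lists were made with earlier results known and CAV2 is counted in both, so these shares say nothing of surface or endocytosis genes as a class.

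REEP5, RTN4, MBTPS1, CERS2 and the locus of MBTPS2 were called lower. REEP5, which curves tubules of the endoplasmic reticulum, was at 29.03, 28.8 and 28.2 FPKM in the control libraries and 20.05, 20.9 and 21.1 FPKM in the SG libraries, a log2 difference of -0.45 ± 0.05 (SE; limma adjusted p = 0.00425). RTN4, a reticulon of the same tubules, went from 154 ± 6.91 to 114 ± 2.88 FPKM. MBTPS1, the site-1 protease that activates SREBP and ATF6 in the Golgi, was at 30.5, 26.9 and 27.7 FPKM in the control libraries and 19.6, 19.1 and 19.4 FPKM in the SG libraries, a log2 difference of -0.52 ± 0.06 (SE; limma adjusted p = 0.00444). The locus of MBTPS2, the site-2 protease that follows it, is shared with YY2 and went from 13.6 ± 0.769 to 9.53 ± 0.299 FPKM, a call lost in 5 of the 6 fits without 1 library. CERS2, a ceramide synthase, went from 110.3 ± 1.08 to 83.3 ± 2.17 FPKM with a call that held in each fit without 1 library. None of 27 loci for cholesterol synthesis and uptake was called by limma (1 had an unadjusted p under 0.05, median -0.01), and none of 24 for chaperones and the unfolded protein response (0 with an unadjusted p under 0.05, median 0.02).

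In RAS and ERK signalling, which BCR-ABL1 drives in K562, SHOC2 had the largest fall among called loci not listed at 0 in any library. SHOC2, a leucine-rich repeat scaffold of this pathway (chr10:110919547-111013667, plus strand), was at 14.2, 9.95 and 10.6 FPKM in the control libraries and 5.11, 4.22 and 3.74 FPKM in the SG libraries. Control replicate 1 was the highest library and the groups did not overlap, with a log2 difference of -1.23 ± 0.15 (SE; limma adjusted p = 0.00698). PTPN12, a tyrosine phosphatase of focal adhesion and RAS signalling, was at 40.8, 39.6 and 38.1 FPKM in the control libraries and 25.7, 22.8 and 19.6 FPKM in the SG libraries, a log2 difference of -0.78 ± 0.10 (SE; limma adjusted p = 0.00919). STAT5B, a transcription factor that BCR-ABL1 activates, was at 30.4, 31.3 and 30.6 FPKM in the control libraries and 20.7, 15.8 and 16.9 FPKM in the SG libraries, and its call (-0.76 ± 0.11 (SE; limma adjusted p = 0.0155)) was lost in 4 of the 6 fits without 1 library. PEA15, which holds ERK in the cytoplasm, was at 32.8, 31.5 and 29.4 FPKM in the control libraries and 20.96, 17.5 and 19.04 FPKM in the SG libraries, a log2 difference of -0.68 ± 0.09 (SE; limma adjusted p = 0.00858). BCR was at 33.99 ± 4.23 and 38.5 ± 4.28 FPKM and ABL1 at 57.9 ± 6.61 and 64.7 ± 4.901 FPKM, neither called. Over the 37 tested loci of the list, 1 was called higher (2.7%, beside 0.443% of all loci) and 3 lower (8.11%, beside 0.64%), and the median was 0.01. The list was made with earlier results known.

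Cell death genes held 1 call. BCL2L11, which encodes the BH3-only protein BIM, was at 20.9, 23.1 and 21.5 FPKM in the control libraries and 14.2, 16.1 and 14.8 FPKM in the SG libraries, a log2 difference of -0.51 ± 0.06 (SE; limma adjusted p = 0.00698), and it was the only call among 32 loci of apoptosis and the BCL2 family (median 0.07; 1.08% of all loci were called). CAST, the calpain inhibitor calpastatin, was at 28.8, 29.6 and 27.8 FPKM in the control libraries and 15.2, 16.2 and 19.1 FPKM in the SG libraries, a log2 difference of -0.74 ± 0.09 (SE; limma adjusted p = 0.00761). NEK9, a kinase of spindle assembly, rose and was at 9.3, 9.19 and 9.54 FPKM in the control libraries and 13.3, 13.4 and 13.7 FPKM in the SG libraries. Its replicate values lay close together in both groups, with a log2 difference of 0.49 ± 0.05 (SE; limma adjusted p = 0.00425). CAST and NEK9 stand in a list of 13 loci, headed calpain and related cytosolic inhibitors, that also holds PEA15 and CERS2. These 4 were its calls (1.08% of all loci were called), but NEK9 and CERS2 are neither, and the list was made with earlier results known, so its count says nothing of calpain.

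Ubiquitin conjugation and DNA repair gave 5 falls (15.2%, beside 0.64% of all loci) and 1 rise (3.03%, beside 0.443%) among 33 loci, a list made with earlier results known. TDG, the thymine DNA glycosylase, was at 42.7, 45.1 and 44.1 FPKM in the control libraries and 26.7, 28.1 and 25.01 FPKM in the SG libraries, a log2 difference of -0.71 ± 0.07 (SE; limma adjusted p = 0.00274). UBE2K, an E2 enzyme that builds ubiquitin chains, was at 53.2, 57.8 and 51.2 FPKM in the control libraries and 34.6, 31.6 and 32.9 FPKM in the SG libraries, a log2 difference of -0.69 ± 0.07 (SE; limma adjusted p = 0.00346). Both calls held in each fit without 1 library. UBE2D1 and UBE2D3, E2 enzymes of one family, went from 10.5 ± 0.351 to 6.06 ± 0.778 FPKM and from 97.5 ± 5.86 to 76.01 ± 3.51 FPKM, and FBXO28, an F-box protein, from 20.7 ± 2.44 to 11.4 ± 0.664 FPKM. The call of UBE2D3 was lost in 5 of those fits, that of FBXO28 in 4 and that of UBE2D1 in 1. UBE2L6, the E2 enzyme for the ubiquitin-like protein ISG15, rose instead and was at 6.395, 5.41 and 5.002 FPKM in the control libraries and 12.6, 11.2 and 11.1 FPKM in the SG libraries. Every SG value was well above the highest control value, with a log2 difference of 0.94 ± 0.10 (SE; limma adjusted p = 0.00441). Beyond the list, the proteasome assembly factor POMP went from 132 ± 4.39 to 101 ± 3.09 FPKM and DDI2, a protease linked to proteasome supply, from 24.97 ± 2.03 to 15.6 ± 1.23 FPKM. The call of DDI2 was lost in 4 of those fits and that of POMP in 1. The median over the 33 loci was 0.04.

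Of 60 loci of G2 and mitosis, 3 were called lower (5%, beside 0.64% of all loci) and none higher. Earlier results were known when this list was made. ANLN, the anillin of the cleavage furrow, was at 42.6, 46.9 and 40.7 FPKM in the control libraries and 26.3, 26.0 and 26.1 FPKM in the SG libraries, a log2 difference of -0.71 ± 0.08 (SE; limma adjusted p = 0.00425). CCNB2, a mitotic cyclin, went from 83.8 ± 2.89 to 66.6 ± 3.17 FPKM and NUF2, a kinetochore protein, from 35.7 ± 1.67 to 27.2 ± 0.779 FPKM, and both calls were lost in all 6 fits without 1 library. Over the 60 loci, 15 had lower values without overlap (25%, beside 7.1% of all loci) and 2 higher (3.33%, beside 12.1%), and the median was -0.11. CCNB1, the main mitotic cyclin, was at 140.5 ± 9.53 and 125 ± 4.58 FPKM without a call. MKI67 is listed at 0 FPKM in control replicate 2 and between 43.5 and 55.0 FPKM in the other 5 libraries, so an exact 0 in this table need not mean a silent gene. Among 58 loci of G1, S phase and DNA replication, E2F3 was the only call, 11 had higher values without overlap (19%, beside 12.1% of all loci) and 4 lower ones (6.9%, beside 7.1%), and the median was 0.05. DUT, which removes dUTP, rose from 72.4 ± 6.61 to 98.8 ± 4.72 FPKM, and DCTPP1, another nucleotide pyrophosphatase, from 66.6 ± 1.002 to 90.4 ± 2.24 FPKM, calls lost in 5 and in all 6 of the fits without 1 library.

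Replication-dependent histone genes, whose transcripts end in a stem-loop and mostly lack a poly(A) tail, gave 2 calls, both higher. HIST1H3H was at 12.7, 14.4 and 13.8 FPKM in the control libraries and 20.6, 22.5 and 24.6 FPKM in the SG libraries, a log2 difference of 0.69 ± 0.08 (SE; limma adjusted p = 0.00698). HIST1H2BJ rose from 46.6 ± 2.56 to 60.6 ± 1.91 FPKM (limma adjusted p = 0.0232), a call lost in 5 of the 6 fits without 1 library. HIST1H4J was at 24.7, 22.02 and 26.2 FPKM in the control libraries and 48.9, 38.5 and 44.5 FPKM in the SG libraries, higher without overlap but not called (limma adjusted p = 0.0684), and HIST1H2AG was at 30.1 ± 1.94 and 36.8 ± 2.26 FPKM without a call. Of 17 tested histone loci 2 were called higher (11.8%, beside 0.443% of all loci) and none lower, 6 had higher values without overlap (35.3%, beside 12.1%) and 1 lower ones (5.88%, beside 7.1%), and the median was 0.16 beside 0.05 for all loci. Under quantile normalization both medians were lower, 0.05 for the histone loci and -0.03 for all loci. These genes share near-identical sequences and 50-base reads may be split among them.

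Double-stranded RNA, which siRNA resembles, can trigger interferon genes through sensors such as EIF2AK2. Of 24 tested loci of such sensors and interferon-stimulated genes, 1 was called higher (UBE2L6; 4.17%, beside 0.443% of all loci) and none lower. Higher values without overlap were found in 3 of them, a share of 12.5% that is near the 12.1% of all loci, and lower ones in none. The median was 0.18 ± 0.09 (SD of the list's median between replicates), beside 0.05 for all loci. Under quantile normalization both medians were lower, 0.06 for the list and -0.03 for all loci. Above 0 were 18 of the 24 loci, beside 60.3% of all loci. EIF2AK2 was at 11.6, 10.7 and 9.704 FPKM in the control libraries and 11.8, 12.7 and 11.4 FPKM in the SG libraries, with groups that did not separate fully. ADAR, the RNA-editing deaminase, was at 43.3, 55.5 and 52.98 FPKM in the control libraries and 60.2, 59.95 and 60.7 FPKM in the SG libraries, and the locus shared by PSMB9, a subunit of the immunoproteasome, and the antisense gene PSMB8-AS1 at 5.24, 4.36 and 6.82 FPKM in the control libraries and 9.64, 6.98 and 8.05 FPKM in the SG libraries, both higher without overlap and without a call. Of 24 NF-kB target loci only IRF2 was called (4.17%, beside 0.443% of all loci). NFKBIA, the inhibitor that NF-kB induces, was at 10.9 ± 1.27 and 12.02 ± 1.49 FPKM, TNIP1 at 29.98 ± 1.15 and 33.8 ± 1.64 FPKM and the kinase MAP3K8 at 17.4 ± 1.86 and 15.4 ± 0.542 FPKM. None of 12 tested target genes of miR-146a was called by limma, none had an unadjusted p under 0.05 and none had groups without overlap. NUMB was lowest among them, at -0.18 ± 0.14 (SE) on the log2 scale, and the median was 0.03.

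For the machinery that the 2 reagents use, no call was made. Of 25 loci for RNA silencing and RNase H, limma called none (6 had an unadjusted p under 0.05), 3 had higher (12%) and 2 lower (8%) values without overlap, near the 12.1% and 7.1% of all loci, and the median was -0.00334. TNRC6A, a partner of Argonaute, was at 17.1 ± 1.998 and 21.7 ± 1.42 FPKM, DROSHA, the nuclear microRNA nuclease, at 24.4 ± 1.61 and 27.7 ± 1.22 FPKM, and RNASEH2C of RNase H2 at 18.8 ± 1.13 and 21.3 ± 1.07 FPKM, the 3 higher ones. TSN (translin) was at 56.2 ± 3.78 and 46.1 ± 1.02 FPKM and the decapping enzyme DCP2 at 27.5 ± 1.29 and 23.6 ± 0.246 FPKM, the 2 lower ones. No call fell in 38 erythroid loci (1 with an unadjusted p under 0.05), 7 megakaryocyte loci (1), 7 myeloid loci (1), 27 loci of the integrated stress response (3), 20 of heat shock (2) or 19 immediate early loci (3). HBZ, embryonic zeta globin, shows the spread between libraries in such genes, with 295, 842 and 1160.0 FPKM in the control libraries and 299, 483 and 758 FPKM in the SG libraries. Of all 34 lists with a tested locus, 15 had a median above 0, and 12 of these were below 0 under quantile normalization, which moved the median of all loci from 0.05 to -0.03. The lists of interferon-stimulated genes, histones and lymphoid markers stayed above 0.

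**Figure D4:**
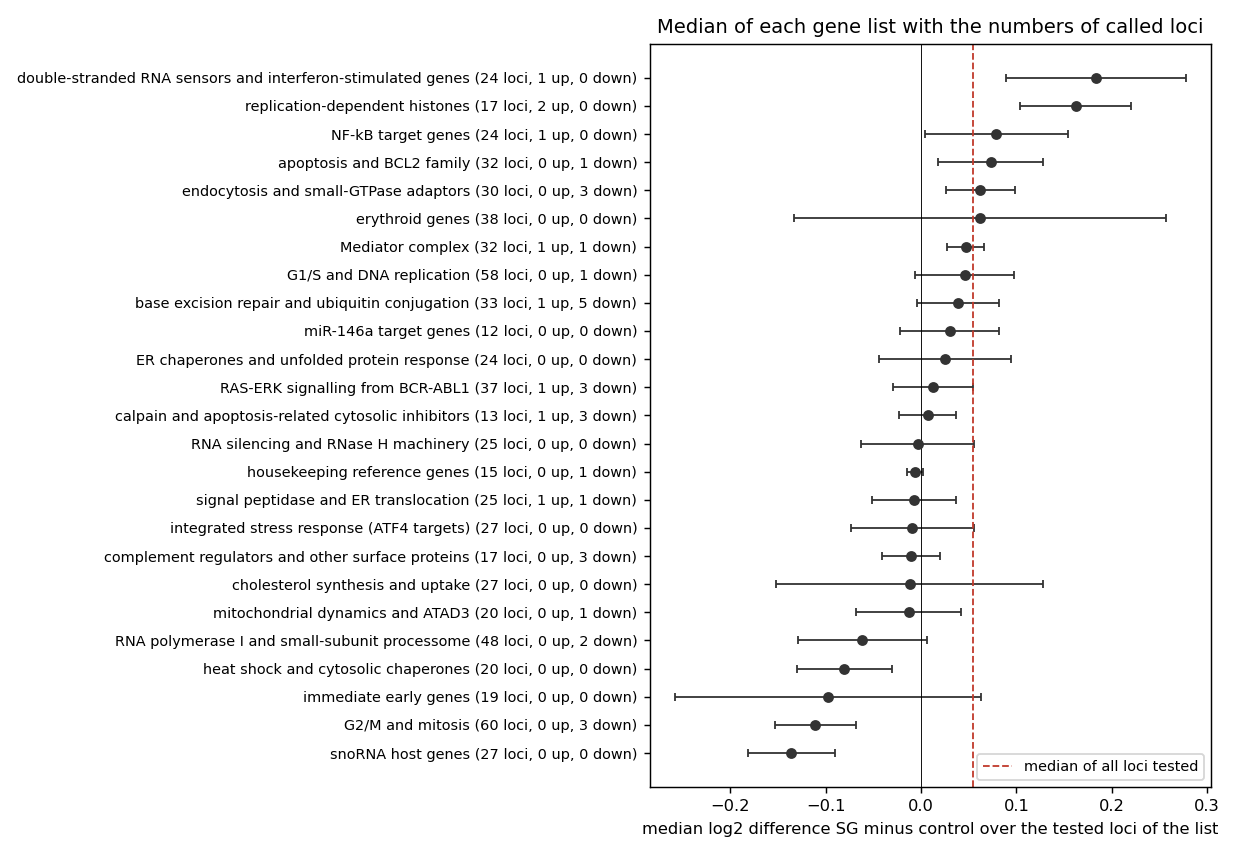
Median log2 difference SG minus control over the tested loci of the gene lists with 10 or more of them (2 lists are not drawn), with the pooled SD of the list's median between replicates as bars and the numbers of called loci in the labels. The dashed line is the median of all loci tested, 0.05, the list of interferon-stimulated genes is highest at 0.18 and that of snoRNA hosts lowest at -0.14.

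Mitochondrial and further genes held other calls. MFN1, the mitofusin that joins mitochondria, was at 9.43, 9.15 and 9.44 FPKM in the control libraries and 5.66, 5.47 and 5.17 FPKM in the SG libraries, a log2 difference of -0.69 ± 0.07 (SE; limma adjusted p = 0.00425). A second locus of the same name was at 9.01 ± 3.13 and 5.42 ± 2.97 FPKM, without a call, and it is the one that stands for MFN1 in the list of mitochondrial dynamics. ATAD3B, a protein of the mitochondrial inner membrane, went from 81.4 ± 6.36 to 53.2 ± 5.45 FPKM, the only call among the 20 loci of that list (median -0.01; 1.08% of all loci were called). UQCC1, an assembly factor of respiratory complex III, rose from 28.2 ± 0.916 to 37.2 ± 1.09 FPKM. IQSEC3, an exchange factor for ARF GTPases, had the largest rise among called loci not listed at 0 in any library. It was at 2.07, 2.498 and 1.31 FPKM in the control libraries and 11.9, 13.4 and 25.9 FPKM in the SG libraries, a log2 difference of 2.55 ± 0.31 (SE; limma adjusted p = 0.00698). CPLX1, a complexin of vesicle fusion, was at 1.55, 2.04 and 3.18 FPKM in the control libraries and 6.704, 8.49 and 11.4 FPKM in the SG libraries, a log2 difference of 1.60 ± 0.24 (SE; limma adjusted p = 0.0181), and MANEAL, an endomannosidase-like protein, rose from 6.28 ± 1.24 to 17.5 ± 1.79 FPKM. A pair from one family of cancer-testis antigens on the X chromosome moved in opposite directions, MAGEC1 from 34.3 ± 1.504 to 22.5 ± 1.82 FPKM and MAGEC2 from 43.9 ± 1.18 to 53.3 ± 1.46 FPKM, both with calls lost in all 6 fits without 1 library. The same held for ATAD3B, UQCC1, MANEAL and LINC01021, and the call of CPLX1 was lost in 4. That of RP11-109P14.9 was lost in 2 and that of CTB-131K11.1 in 1. Among non-coding loci, RP11-109P14.9 rose from 21.4 ± 2.33 to 62.8 ± 8.68 FPKM and LINC01021 from 14.96 ± 1.51 to 22.2 ± 0.564 FPKM, while CTB-131K11.1 fell from 16.1 ± 1.61 to 7.69 ± 1.63 FPKM. At the edge of the threshold, WDR45B, the locus of TM9SF2 and LINC01021 were just inside with a limma adjusted p of 0.0492, and VMA21 (0.0505), MZT1 (0.0506) and ITSN2 (0.0506) just outside.

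Some metabolic enzymes and a receptor, grouped after their values were seen, were called in both directions. AGPAT1, which makes phosphatidic acid, rose from 75.9 ± 0.279 to 92.2 ± 3.43 FPKM and GDE1, a phosphodiesterase of glycerophospholipids, from 56.2 ± 2.78 to 73.3 ± 1.22 FPKM. G6PC3, the ubiquitous glucose-6-phosphatase, rose from 25.3 ± 0.214 to 33.9 ± 2.698 FPKM, MPI, the mannose phosphate isomerase, from 7.95 ± 0.647 to 12.2 ± 0.744 FPKM, and ALDH5A1, the succinic semialdehyde dehydrogenase, from 7.403 ± 0.413 to 10.8 ± 0.285 FPKM. CHPF, a chondroitin polymerizing factor, rose from 23.98 ± 2.09 to 33.5 ± 3.18 FPKM. PTER, a phosphotriesterase-related protein, fell from 13.3 ± 1.02 to 7.54 ± 0.890 FPKM and ADIPOR2, an adiponectin receptor, from 33.8 ± 2.14 to 24.7 ± 2.65 FPKM. The calls of AGPAT1, GDE1, G6PC3, ALDH5A1 and ADIPOR2 were lost in all 6 fits without 1 library, those of MPI and CHPF in 5 and that of PTER in 4. CERS2, described above, is a further lipid enzyme and was lower.

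Some called genes of the nuclear envelope, cytoskeleton and small GTPases, with a phosphatase and a kinase, were grouped after their values were seen. Their calls went in both directions. LBR, the lamin B receptor, rose from 82.5 ± 5.41 to 105 ± 2.23 FPKM, and KPNA4, an importin alpha, fell from 14.4 ± 0.876 to 9.95 ± 0.565 FPKM. CETN2, a centrin, fell from 33.04 ± 1.69 to 25.4 ± 0.453 FPKM and CAMSAP1, which binds microtubule minus ends, from 13.4 ± 0.281 to 10.4 ± 0.491 FPKM. NET1, an exchange factor for RhoA, fell from 51.6 ± 1.35 to 38.4 ± 2.35 FPKM, while CYTH1, one for ARF proteins, rose from 10.9 ± 0.521 to 14.4 ± 0.562 FPKM and DEF6, one for RAC, from 13.6 ± 1.18 to 18.95 ± 1.02 FPKM. PTP4A1, a phosphatase of growing cells, fell from 32.8 ± 3.89 to 20.7 ± 1.07 FPKM and DYRK2, a kinase, from 13.01 ± 1.14 to 7.48 ± 1.01 FPKM. The calls of CAMSAP1 and CYTH1 were lost in all 6 fits without 1 library and those of LBR, CETN2, DEF6 and DYRK2 in 5. Those of KPNA4 and PTP4A1 were lost in 4 and that of NET1 in 3.

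By gene symbol, 71 of the 81 lower loci and 43 of the 56 higher loci were matched to GENCODE release 29. Of these, 70 and 41 are protein-coding genes (98.6% and 95.3% of the matched loci, with 91.3% of the matched loci among all tested). The called loci left unmatched include some described above as non-coding. These shares therefore hold for the matched loci only and do not show that the calls are richer in coding genes. The matched lower loci lay on 19 chromosomes, with 9 on chromosome 1 and 7 on chromosome 5. The matched higher loci lay on 18, with 6 on chromosome 1 and 0 on chromosome 5. Of 10019 matched loci among all tested, 1061 were on chromosome 1 and 438 on chromosome 5. None of the 5 tested loci around PTTG1 was among the calls. Of the higher loci 76.8% and of all tested 79.2% were matched, under the 80% needed. Comparisons of transcript lengths and of coding shares were therefore void and were not made.

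Of the 137 calls, 10 were at loci whose values stepped in whole reads, and 9 had all 3 libraries of a group listed at 0. SDCBPP3, a pseudogene, had 9, 4 and 3 reads in the control libraries and 0, 0 and 0 in the SG libraries, which the table lists as 2081, 989 and 881 FPKM against 0. C16orf96 had 3, 2 and 5 reads in control and 0 in each SG library. The locus of ATPIF1 that was called had 1, 2 and 3 reads in control and 0 in SG, while another locus of ATPIF1, at 143 FPKM or more in every library, was not called. On the other side, NBPF26 had 2, 3 and 13 reads in SG, RP4-676J13.2 2, 3 and 10, PRSS23 4, 1 and 10, AC002310.7 3, 3 and 18, RP11-234B24.6 2, 10 and 4 and RP11-875O11.2 1, 1 and 3, each with 0 in every control library. OTOA had 11, 6 and 5 reads in control and 19, 17 and 19 in SG. FPKM magnifies such reads at short loci, and limma's adjusted p does not take their counting error into account, so no fold is given for them.

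The same transfection under TNF gave a second set of libraries that shares none with the first, though the fit shares 1 estimate of the spread and this pattern was known when the loci were chosen. Of the 81 loci called lower, 80 were below 0 in TNFSG minus TNF, 79 of them without overlap, and 51 were called lower there, beside 41.1%, 7.51% and 0.514% of all loci tested. Of the 56 called higher, 50 were above 0, 46 without overlap, and 20 were called higher, beside 58.3%, 11.0% and 0.285%. None was called in the opposite direction. MED1 differed by -0.95 without TNF and -0.96 with it, SHOC2 by -1.23 and -1.23, and SEC11A by 0.83 and 0.86 on the log2 scale. HEATR1 differed by -0.95 and -0.81, TDG by -0.71 and -0.52, and IQSEC3 by 2.55 and 1.70. The medians were -0.52 and -0.44 for the lower loci and 0.48 and 0.39 for the higher ones. Of the 6 higher loci that were not above 0 under TNF, RP4-676J13.2, AC002310.7, RP11-234B24.6 and OTOA are loci of few reads. The others were CEP290, a ciliary protein, at 0.46 and -0.08, and RP11-265D17.2 at 0.47 and -0.05. The lower locus that was not below 0 under TNF was SDCBPP3. The difference between the 2 effects was tested as an interaction, which called 5 of 12648 loci (0.0395%), 4 of them loci of few reads.

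**Figure D5:**
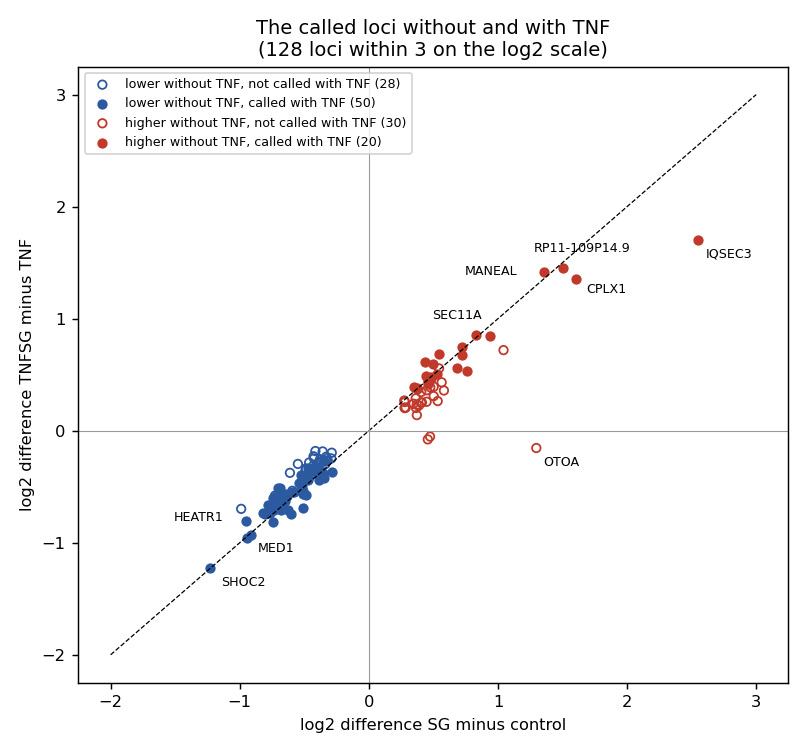
Log2 difference TNFSG minus TNF against SG minus control for 128 of the 137 called loci, those within 3 on the log2 scale, filled where also called with TNF. The points lie along the dashed line of equal effect, from SHOC2 at -1.23 on both axes to IQSEC3 at 2.55 and 1.70, and OTOA lies off it.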

How the data were processed

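RNA-seq of 12 K562 libraries was taken from 1 table of FPKM per locus, of which the 3 SG and 3 control libraries are described here. Trizol-extracted RNA was sequenced in single 50-base reads (Illumina HiSeq), per the labels' protocols. The authors deposited FPKM values, which per the submitters' processing notes come from Bowtie2 2.2.9, TopHat2 2.0.14 and Cufflinks on hg38. For the Cufflinks release and the annotation, nothing is given in the sources used here. Strand is not stated, so overlapping, antisense and near-identical genes share reads: 779 of the 12648 loci carry several names, 624 symbols name more than 1 locus, and for a listed gene the locus of highest mean was taken.

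Values were taken as log2(FPKM + 1). Named loci with a mean of at least 5 FPKM over the 6 libraries were tested, with 1247 of them listed at 0 in at least 1 of the 12 libraries. limma 3.58.1 in R 4.3.3 was fitted with a trend and 1 mean for each of the 4 groups over all 12 libraries, two-sided, with Benjamini-Hochberg adjustment over the 12648 loci and a threshold of 0.05. The code was tested on simulated data, which bears on the code and not on the calls. Comparisons were SG against control, TNFSG against TNF, and their interaction. The labels call the replicates biological, and no more is said of separate cultures.

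The table gives no read totals. Relative depths came from low values that step in whole reads (tolerance 0.03 of a read), which was found for 21106 of 37506 loci (56.3%) and for 11 with decoy depths, and for 2063 of the loci tested. No count test was run. No 2 libraries held identical values. Same-numbered SG and control libraries deviated together with correlations of 0.03, 0.00 and 0.01. The titles give each number its own letter (A, B or C) in all groups, but no label states a shared culture or day. The numbers were therefore not taken as pairs in the main fit, which does not show that they are unpaired.

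The rule for named genes takes the measured loci around PTTG1, then up to 15 rises and 15 falls by lowest adjusted p and by largest difference among called loci without overlap, called members and up to 4 others of lowest p in each list, up to 5 loci of the interaction, and the subunits of a complex in the lists with a called member among the first. EZH2, BICD2, POMP, M6PR, RTN4, NET1, DDI2, MBTPS2, PTP4A1, KPNA4, STX12, DHX29, CETN2, SEC24A, UQCC1, MRPL10, CAMSAP1, LBR, DUT, G6PC3, MPI, DYRK2, MAGEC1, MAGEC2, RP11-265D17.2, ZMYND8, AGPAT1, GDE1, CHPF, NSUN2, ADIPOR2, DCTPP1, ALDH5A1, CYTH1, CEP290, DEF6, LINC01021, WDR45B, the locus of TM9SF2, VMA21, MZT1, ITSN2, MYC and MKI67 were named after their values were seen. The loci, the gene lists and the rule were chosen with earlier results of these data known. A list of mitochondrially encoded genes had no match and was not analysed here, and some named loci and a list are not reported here.

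Alternatives were a block for the replicate number, a pseudocount of 0.1 or 0.5, the whole table (at least 1 FPKM in 3 libraries, named or not), no filter, a minimum of 10 FPKM, single-name loci, median-ratio scaling, quantile normalization, no trend, the 6 libraries alone and each library left out. Leaving out loci listed at 0 and robust empirical Bayes were added after seeing the data. Python 3.11.15, numpy 2.4.6, pandas 2.3.3 and matplotlib 3.10.9 were used.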

Additional observations from a re-analysis of the deposited data

Results flagged for a closer look

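In 5 loci the effect of the SG transfection differed between cells with and without TNF by limma's interaction term (adjusted p under 0.05), beside 336 of 12648 with an unadjusted p under 0.05. ZNF778, a zinc finger gene, was at 13.5, 14.88 and 14.2 FPKM in control and 18.6, 19.2 and 16.9 FPKM in SG, and at 18.9, 20.3 and 20.7 FPKM in TNF and 14.3, 12.9 and 14.2 FPKM in TNFSG. Its effect with TNF minus that without was -0.838 on the log2 scale (limma adjusted p = 0.042). Over 18 alternatives limma's adjusted p ran from 0.0237 to 0.184, and the call was lost in 10 of them: with no locus listed at 0 (0.109), over the whole table (0.128), with no filter (0.159), under quantile normalization (0.102), with the replicate block (0.184) and in 5 of the 6 fits without 1 library. It moved in opposite directions in the 2 settings, higher without overlap in the first and lower without overlap in the second.

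The other 4 loci rest on few reads and each had a group listed at 0, so their fitted differences depend on the pseudocount. Over 17 alternatives the call of C16orf96 was lost in 13, that of RP4-676J13.2 in 12, that of AC012322.1 in 1 and that of SDCBPP3 in 0. SDCBPP3 differed by 10.745, with 9, 4 and 3 reads in control and 0 in each SG library, against 9, 3 and 8 reads in TNF and 19, 6 and 6 in TNFSG. C16orf96 differed by 8.662, with 0 reads in each SG library and 7, 3 and 2 in TNFSG. AC012322.1 differed by -10.357, with 4, 2 and 12 reads in SG and 0 in each TNFSG library. RP4-676J13.2 differed by -5.758, with 2, 3 and 10 reads in SG and 0 in each library of the other groups.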

How the results depend on the processing

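The counts of calls depended on the spread, the number of loci tested and the scaling, and no called locus reversed its direction under any alternative. With the replicate block 205 loci were called higher and 219 lower, all 137 calls included. Whether the replicate numbers pair the libraries is not stated in the labels and was not settled here. Of 6 libraries, 3 correlated best with the library of their own number. Over the whole table, with more loci tested, 18 were called higher and 38 lower (56 of 32866, 0.17%, 52 of them among the 137), and with no filter 17 and 33. Median-ratio scaling gave 36 and 128 and moved the median of all loci to 0.01, and quantile normalization gave 30 and 175 with a median of -0.03. With only the 6 libraries, fewer samples gave 2 and 2. Leaving out 1 library gave 14 to 40 higher and 33 to 57 lower, fewest without SG replicate 3 for the rises and without control replicate 2 for the falls. Counts by limma stayed within 1.5 times with pseudocounts of 0.1 and 0.5, a minimum of 10 FPKM, single-name loci, no trend, no locus listed at 0 and robust empirical Bayes. The interaction, with 5 calls, had 2 with the replicate block, 3 over the whole table, 3 with no filter, 3 with median-ratio scaling, 2 with quantile normalization, 3 with robust empirical Bayes and 1 to 8 when 1 library was left out (1 without SG replicate 1, 8 without SG replicate 3). With loci listed at 0 left out, limma called 0 of 11401 in the interaction, and 283 had an unadjusted p under 0.05. Of 34 gene-list medians, 23 moved by more than the list's SD between replicates under quantile normalization, 11 under median-ratio scaling, 13 without control replicate 1, 7 without control replicate 3 and 5 or fewer under each other alternative. Of the 15 medians above 0, 12 were below 0 under quantile normalization and 7 under median-ratio scaling, and none of those below 0 was above it. Among named loci without a call, some changed sign when 1 library was left out: SLU7 ranged from -0.111 to 0.054 (0.008 without SG replicate 3), PWWP2A from -0.144 to 0.013 (0.007 without control replicate 1), SPCS3 from -0.073 to 0.029 (0.010 without control replicate 2) and SPCS1 from -0.013 to 0.132 (-0.006 without control replicate 1). Under quantile normalization SPCS1 was at -0.017. The causes were not tested. Total depth is unknown, so counting error limits the loci of few reads.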
